A study of Mus musculus with 48 samples.

Results

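Malat1, Neat1, Kcnq1ot1, Tug1, Miat and Pvt1 are long noncoding RNAs known mainly or partly from the nucleus. They were chosen by name, and all 6 were found among the 20171 genes of a count table of RNA recovered with the protein Tnrc6a from mouse embryonic stem cells. The question was whether RNAs of this kind are depleted from what Tnrc6a recovers. RNA immunoprecipitation followed by sequencing (RIP-seq) compares the RNA in a cell lysate (the input) with the RNA that antibody beads pull out of it (the immunoprecipitate, IP).

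All cells were 129S6/SvEvTac embryonic stem cells that carry the GFP_5xT71BS reporter and a stably transfected FLAG-Cas9 transgene. Untagged cells had no further change. HA-Tnrc6a cells carry HA-AVI-Tnrc6a, a tag on the bait, and the other genotypes were HA-AVI-Tnrc6a with Ago2-/- or with a label of Upf1-/-. Each of these 4 genotypes gave 6 input and 6 IP libraries, 48 in all, from cells grown in triplicate dishes. The number of clones behind a genotype, their passage and the sex of the cells are not given in the sources used here. Columns numbered 1 to 3 are called the first set and columns numbered 4 to 6 the second set. They were taken as experiments 3 and 4 of the labels, a match inferred from the numbering. Every group below therefore holds 3 libraries per set, and p-values measure the spread between such libraries.

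Tnrc6a is a GW182 protein. In the cytoplasm it binds Argonaute proteins such as Ago2, which are guided to messenger RNAs by microRNAs, and it recruits enzymes that shorten poly(A) tails. Malat1 gathers in nuclear speckles, which store splicing factors, and Neat1 is the scaffold of paraspeckles. Kcnq1ot1 is an imprinted antisense RNA that silences neighbouring genes on its own chromosome. Miat forms nuclear bodies of its own, Tug1 is found in nucleus and cytoplasm, and Pvt1 is transcribed beside the Myc gene.

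The first bases of the transcripts show which RNAs are meant, since their names say nothing of their sequence. RefSeq entries of GRCm38.p6 for the start of the gene matched 4 of the 6 members. The lines below give the first 50 transcribed bases, 5′ to 3′, with every CG in capitals (CG reads the same on both strands and cannot overlap itself).
Malat1: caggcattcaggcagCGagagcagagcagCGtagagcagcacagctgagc
Kcnq1ot1: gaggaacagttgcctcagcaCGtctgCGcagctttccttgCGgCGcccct
Tug1: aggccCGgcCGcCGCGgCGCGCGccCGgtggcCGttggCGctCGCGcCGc
Miat: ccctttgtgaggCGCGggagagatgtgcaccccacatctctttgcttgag
All 4 lie on the minus strand, at chr19:5802623-5802672, chr7:143296498-143296547, chr11:3648765-3648814 and chr5:112228899-112228948. In the 300 bases around the start (250 before and 50 after), Tug1 held 37 CG, more than 94.4% of 32851 such windows in RefSeq. Miat held 25, Malat1 10 and Kcnq1ot1 9, where the median window held 7.

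In that annotation Malat1 covers chr19:5795690-5802672 and includes Mascrna, the small RNA cut from its 3′ end. Neat1 is its neighbour at chr19:5824708-5845480. Kcnq1ot1 (chr7:143213111-143296547) lies inside Kcnq1, Tug1 is at chr11:3639785-3648814, Miat at chr5:112213228-112228948, and Pvt1 (chr15:62037986-62260215) overlaps Macroh2a3. Whether reads were assigned by strand, and how reads in shared stretches were counted, is not given in the sources used here. The values of Malat1, Kcnq1ot1 and Pvt1 could therefore include reads of the gene they overlap, or lack reads left out as shared.

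First-set inputs held 15383953 to 19595405 counts and first-set IPs 11471544 to 18344233. Second-set inputs held 26458831 to 37179105 counts and second-set IPs 25724085 to 73845953. Embryonic stem cell markers summed to 6890 to 8630 CPM (counts scaled to library size) in inputs, with 10 of 10 in the table, and 3 of 5 fibroblast markers summed to 20.5 to 36.7 CPM. Tnrc6a mRNA, the message of the bait, stood at 26550 and 10680 CPM in HA-Tnrc6a IPs of the first and second set. In untagged IPs it stood at 71.2 and 99.8 CPM. Recovery of the bait protein itself was not measured. Ago2 mRNA stood at 207 and 316 CPM in the inputs with the tag alone, and at 94.6 and 130 CPM in those of the Ago2 knockout. Upf1 mRNA stood at 77.6 and 98.5 CPM with the tag alone and at 123 and 139 CPM in cells labelled Upf1 knockout, so it was not lower under that label. HA-Tnrc6a input 3 stood apart from inputs 1 and 2 of its group (chi-square per degree of freedom 34.3 and 28.9, against 2.66 between those 2). Without it no member gained or lost a call between fractions or genotypes, and among the differences between sets only Malat1 in the Ago2 knockout recovery lost one (adjusted p = 0.0935).

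The 6 RNAs spanned a wide range of abundance in the lysates. Per kilobase, over the 24 inputs, Malat1 was highest at 18.2 ± 3.80 CPM per kb (mean ± SD), above 84.0% of genes. Tug1 followed at 9.63 ± 0.836, Neat1 at 4.26 ± 1.89 and Pvt1 at 2.74 ± 2.16 CPM per kb. Miat stood at 0.491 ± 0.119 CPM per kb. Kcnq1ot1 had almost no counts for its length, at 0.00649 ± 0.00335 CPM per kb, lower than almost every other gene of the table. Its inputs held between 4 and 46 counts, and reads left out in the stretch shared with Kcnq1 could make its level too low. Neat1 and Pvt1, whose ranges were 2.17 to 8.63 and 1.17 to 8.39 CPM per kb, overlapped each other. The mean of Pvt1 was 1.36 to 1.87 CPM per kb in 3 genotypes and 6.09 in inputs labelled Upf1 knockout, and in the second set of those it stood above Neat1 (7.66 against 3.77). The Tug1 inputs (8.40 to 11.5) lay below all but the lowest Malat1 inputs (11.2 to 23.9).

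**Figure D1:**
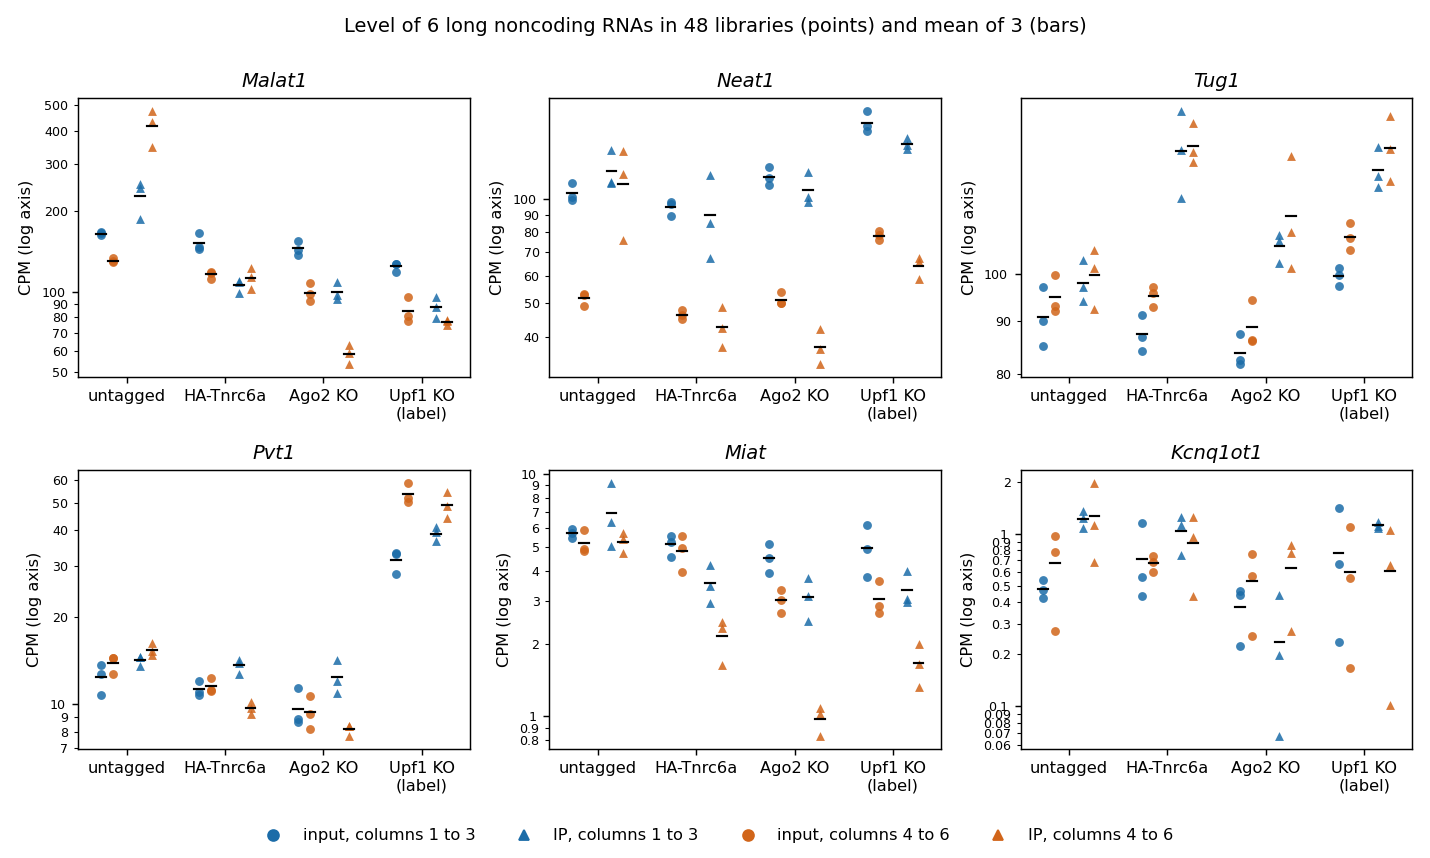
Level of the 6 RNAs in each of the 48 libraries, in CPM on log axes that differ between panels. Circles are inputs, triangles IPs, blue the first set (columns 1 to 3) and orange the second (columns 4 to 6), and black bars are means of 3 libraries. Malat1 was highest in the untagged IPs, Tug1 was above its inputs in every tagged IP, and Pvt1 was highest in libraries labelled Upf1 knockout.

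Set against input, the HA-Tnrc6a IPs did not hold less of all 6 RNAs. Malat1 and Miat fell, Tug1 rose, and Neat1, Kcnq1ot1 and Pvt1 did not pass the test (edgeR's quasi-likelihood test, Benjamini-Hochberg adjusted p under 0.05 over all genes). Thus 2 of 6 were lower where 34.7% of the 19993 genes tested were lower, and 1 of 6 was higher where 34.5% were. The median log2 IP over input of the 6 was -0.03, against -0.06 over all genes tested. Set against what beads took from untagged cells, Malat1, Neat1 and Miat were lower and Tug1 was higher, so 3 of 6 were lower (background 32.2%) and 1 higher (29.8%). That second measure is the log2 IP over input of HA-Tnrc6a cells less that of untagged cells, and its median was -0.69 over the 6 and -0.10 over all genes.

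These counts depend on how libraries are scaled. The values above use TMM factors, which centre most genes near 0. With library totals, the median log2 IP over input of all genes in HA-Tnrc6a cells moved from -0.06 to -0.39, and the share of called genes that were higher moved from 49.9% to 32.1%. Neat1 and Pvt1 then passed the test as lower (-0.42 and -0.31), which makes 4 lower and 1 higher, with Tug1 still higher at 0.21. Among all genes 10379 were then lower and 4911 higher, against 6941 and 6901 with TMM, so the background moved as well. Over untagged cells Pvt1 also passed as lower with library totals (-0.31, adjusted p = 0.00999) and when IPs were compared without inputs (-0.34, adjusted p = 0.000696), which makes 4 of 6 lower under either. Among all genes 7976 were lower and 5121 higher with library totals, and 6893 and 6757 without inputs. In the main test 6440 were lower and 5955 higher. The order of genes within a comparison is not touched by a common shift. In HA-Tnrc6a IP over input, Miat was above 7.61% of genes, Malat1 37.0%, Neat1 48.5%, Pvt1 53.5%, Kcnq1ot1 70.2% and Tug1 73.0%.

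**Figure D2:**
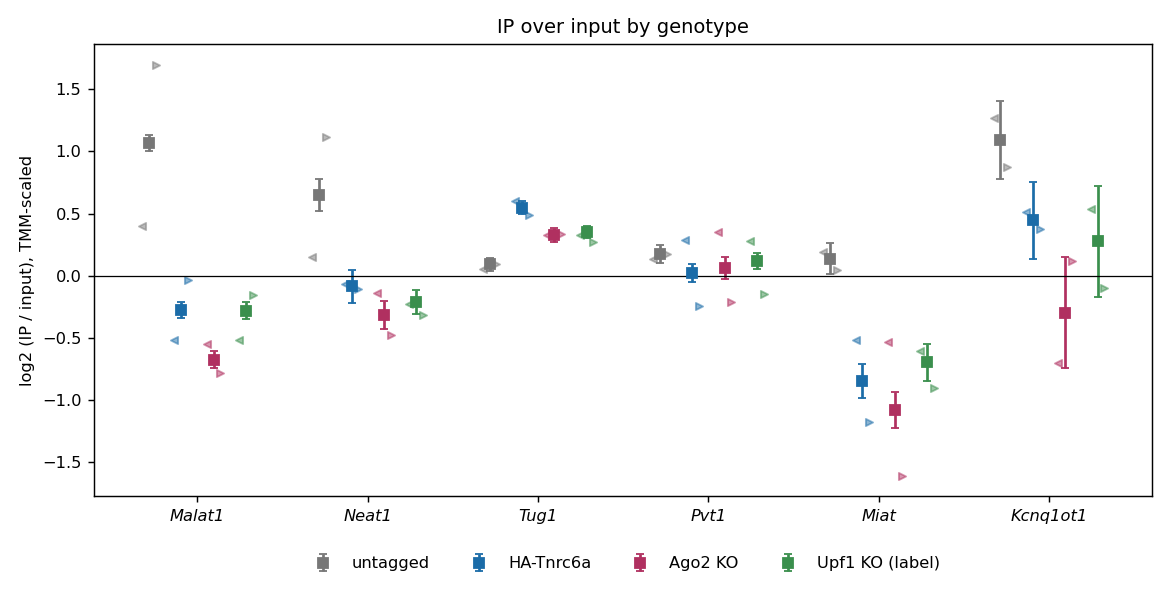
Log2 IP over input for each RNA in the 4 genotypes, scaled by TMM. Squares are the estimate over both sets with its standard error, and small triangles the estimate within the first set (pointing left) and the second set (pointing right). Malat1 and Neat1 were above 0 in untagged cells and at or below it in tagged cells, Miat was below 0 in all 3 tagged genotypes and Tug1 above.

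Malat1 was taken up by beads without any tag. The untagged inputs held 165, 167 and 163 CPM in the first set and 130, 129 and 133 CPM in the second, while the untagged IPs held 187, 243 and 253 CPM and then 475, 349 and 431 CPM. Every untagged IP lay above every untagged input, and the second set far more so. The log2 IP over input was 1.07 (SE 0.066, adjusted p = 7.73e-15), above 97.1% of genes. It was 0.40 in the first set and 1.70 in the second, and this difference between sets passed its own test (1.26, SE 0.13, adjusted p = 7.57e-08).

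In HA-Tnrc6a cells the Malat1 inputs held 145, 147 and 165 CPM, then 118, 118 and 112 CPM. The IPs held 98.5, 109 and 110 CPM, then 102, 123 and 113 CPM. IPs lay below inputs in the first set and overlapped them in the second. The log2 IP over input was -0.28 (SE 0.066, adjusted p = 0.000432), with -0.52 in the first set and -0.04 (adjusted p = 0.722) in the second. Against untagged cells the difference was -1.35 (SE 0.093, adjusted p = 1.48e-14), and only 2.12% of genes were lower. Of that difference, 1.07 is the rise in untagged cells, so the share of Malat1 was much lower against the bead background and only slightly lower against its lysate. For this and every other RNA here, CPM are shares of a library. Counts do not give the total RNA that untagged or tagged IPs brought down, so absolute amounts cannot be compared.

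Neat1 shared the bead background of Malat1 with more scatter. Untagged inputs held 111, 99.1 and 101 CPM in the first set and 49.0, 52.7 and 53.3 CPM in the second. Untagged IPs held 138, 111 and 111 CPM, then 137, 75.9 and 118 CPM. The fractions overlapped in the first set and were apart in the second. The log2 IP over input was 0.65 (SE 0.13, adjusted p = 0.000671), with 0.15 in the first set and 1.12 in the second. That difference between sets was 0.93 (adjusted p = 0.0521), which did not pass. By this test 1 of 6 members, Malat1, was higher in the second set, where 2.94% of genes were higher and 1.51% lower. Neat1 also passed with DESeq2 (adjusted p = 0.00999), in 1 fit of all 48 libraries (0.00589) and with library totals (0.00635).

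HA-Tnrc6a inputs held 98.2, 96.6 and 89.4 CPM of Neat1, then 47.8, 46.2 and 45.1 CPM, and the IPs 117, 67.5 and 85.3 CPM, then 37.4, 48.6 and 42.4 CPM. The fractions overlapped in both sets. The log2 IP over input was -0.09 (SE 0.13, adjusted p = 0.581). Against untagged cells Neat1 was lower by a log2 of -0.74 (SE 0.19, adjusted p = 0.00216), of which -0.21 (adjusted p = 0.407) was seen in the first set and -1.23 (adjusted p = 0.00373) in the second. The Neat1 inputs of the second set held fewer CPM than those of the first in all 4 genotypes, and the groups did not overlap.

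Miat was the member with the lowest recovery relative to its lysate. HA-Tnrc6a inputs held 5.57, 4.58 and 5.28 CPM, then 3.96, 5.58 and 4.98 CPM. The IPs held 2.95, 3.46 and 4.23 CPM, then 2.46, 1.63 and 2.33 CPM. All IPs lay below all inputs of their set. The log2 IP over input was -0.85 (SE 0.14, adjusted p = 1.93e-06). In untagged cells the IPs (5.06, 6.37 and 9.25 CPM, then 5.70, 4.71 and 5.41 CPM) overlapped the inputs (5.48, 5.75 and 5.95 CPM, then 4.84, 5.87 and 4.90 CPM), with a log2 of 0.14 (adjusted p = 0.432). The difference between HA-Tnrc6a and untagged cells was therefore close to the value against input, at -0.98 (SE 0.19, adjusted p = 2.81e-05).

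Tug1 went the other way. HA-Tnrc6a inputs held 91.3, 87.0 and 84.2 CPM, then 95.8, 97.2 and 92.8 CPM, and the IPs 144, 132 and 119 CPM, then 129, 140 and 132 CPM. No IP reached down to an input. The log2 IP over input was 0.55 (SE 0.051, adjusted p = 1.46e-11), which is a 1.46-fold rise and above 73.0% of genes. Untagged IPs (103, 94.1 and 97.1 CPM, then 106, 92.6 and 101 CPM) overlapped the untagged inputs, which ran from 85.1 to 99.9 CPM, and the log2 was 0.09 (adjusted p = 0.175). Over untagged cells Tug1 was enriched by a log2 of 0.46 (SE 0.073, adjusted p = 1.52e-06), and by 0.55 and 0.39 within the sets.

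Pvt1 did not move against either reference over both sets. HA-Tnrc6a inputs held 10.97, 10.7 and 12.04 CPM, then 12.3, 11.03 and 11.2 CPM, and the IPs 14.2, 12.7 and 13.9 CPM, then 10.2, 9.22 and 9.68 CPM. IPs lay above inputs in the first set and below them in the second. The mean log2 IP over input of 0.02 (SE 0.075, adjusted p = 0.818) joins 0.29 (adjusted p = 0.0545) and -0.25 (adjusted p = 0.0263). Against untagged cells it was -0.15 (adjusted p = 0.207), with 0.15 in the first set and -0.42 (adjusted p = 0.00795) in the second. The difference between sets in that measure did not pass (adjusted p = 0.432).

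Kcnq1ot1 had few counts and a wide spread between libraries. HA-Tnrc6a inputs gave 8, 10 and 24 counts, then 28, 23 and 23, and the IPs 16, 16 and 11, then 11, 28 and 30. Untagged inputs gave 7, 11 and 8 counts, then 8, 29 and 37, and untagged IPs 18, 14 and 14, then 38, 19 and 57. In untagged cells the fractions were apart in the first set and overlapped in the second, with a log2 IP over input of 1.09 (SE 0.32, adjusted p = 0.0062). In HA-Tnrc6a cells it was 0.44 (SE 0.31, adjusted p = 0.203), and against untagged cells -0.65 (SE 0.44, adjusted p = 0.209). Neither passed the test.

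In untagged cells 3 of the 6 RNAs were thus higher in the IP than in the input and none lower, where 18.7% and 18.6% of all genes were. Neat1 did not pass in the first set alone (0.15, adjusted p = 0.514), nor Kcnq1ot1 in the second alone (0.88, adjusted p = 0.0975). Malat1 and Kcnq1ot1 stood above 97.1% and 97.2% of genes and Neat1 above 92.1%, whereas Pvt1, Miat and Tug1 stood above 71.8%, 68.4% and 64.0%. Among other nuclear or chromatin RNAs, 10 of the 13 tested (of 20 listed) were higher in untagged IPs and 0 lower, with a median of 0.99. In HA-Tnrc6a IPs 4 of those 13 were higher (background 34.5%) and 4 lower (34.7%) than in the inputs, with a median of -0.10. Over untagged cells 8 of the 13 were lower (background 32.2%) and 1 higher (29.8%). They ran from Xist, the X inactivation RNA, at -1.38 to Rian, an imprinted maternally expressed RNA, at 2.12. Xist overlaps its antisense partner Tsix, so its value is uncertain.

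RNAs listed as snoRNA hosts or mainly exported were not all recovered better, and the location of RNAs was not measured. Of 18 such RNAs tested, 13 were higher (background 18.7%) and 1 lower (18.6%) in untagged IPs. In HA-Tnrc6a IPs 11 were lower (background 34.7%) and 6 higher (34.5%) than in the inputs, with a median of -0.31. That median was lower than those of the other nuclear RNAs (-0.10) and of the 6 members (-0.03). Over untagged cells 13 were lower (background 32.2%) and 3 higher (29.8%). They ran from Snhg12 at -1.38 to H19, an imprinted RNA, at 4.19. The housekeeping mRNAs, which are translated in the cytoplasm, gave a lower median IP over input than the 6 members: -0.75 in HA-Tnrc6a cells. Of their 16 rows (for 15 genes, as Aldoa has 2) 15 were lower, where 34.7% of all genes were lower and 34.5% higher. Short structural nuclear RNAs were lowest, with a median of -1.72 and 4 of 6 rows lower in HA-Tnrc6a IPs, Rmrp counted under 2 identifiers. Over the 711 genes that RefSeq calls long noncoding, the median was -0.08, with 26.0% higher and 25.7% lower.

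**Figure D3:**
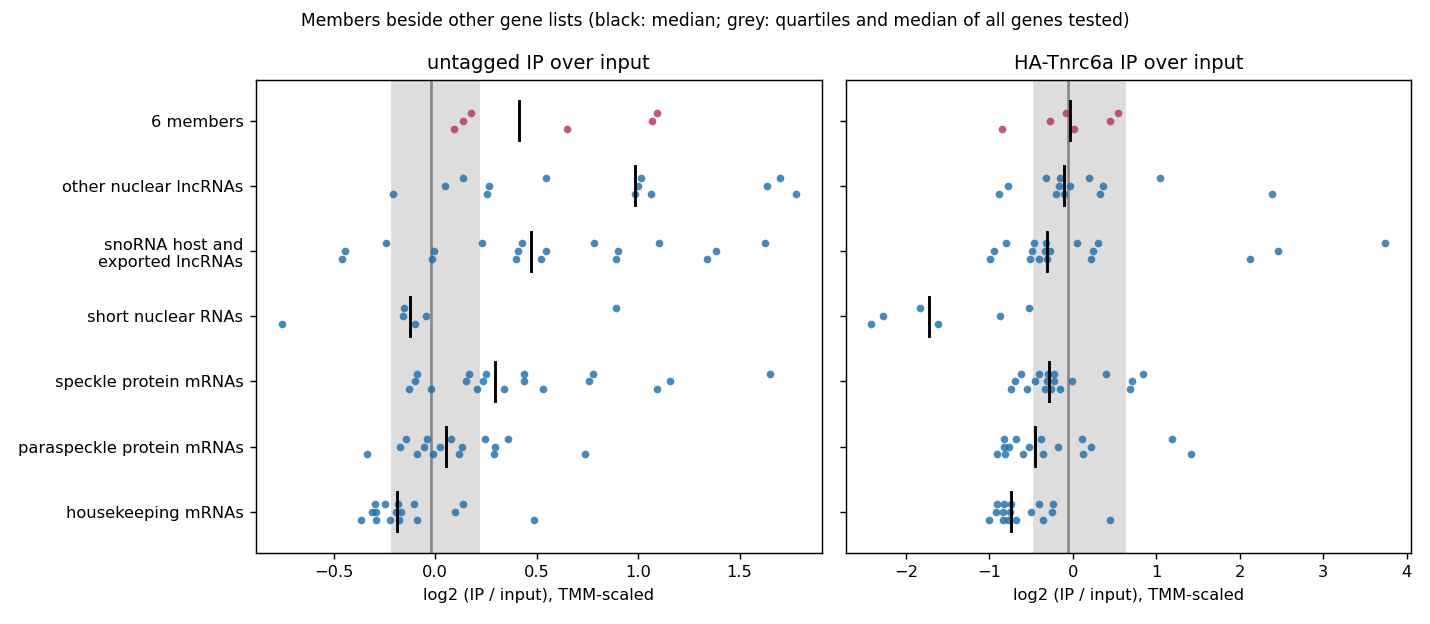
Log2 IP over input in untagged cells (left) and HA-Tnrc6a cells (right), with 1 point per gene, for the 6 RNAs and 6 other lists. Black bars are list medians, and the grey band and line are the quartiles and median of all genes tested. In untagged cells the medians of the 6 RNAs (0.41), the other nuclear long noncoding RNAs (0.99), the snoRNA host list (0.47) and speckle protein mRNAs (0.29) lay above 0 and that of short nuclear RNAs (-0.13) below, while in HA-Tnrc6a cells the 6 RNAs straddled the median of all genes and housekeeping mRNAs lay to the left.

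Messages for proteins of the compartments were counted too, over untagged cells, where 32.2% of all genes were lower and 29.8% higher. Housekeeping mRNAs were at 13 of 16 lower and 0 higher on this measure. Of the 6 rows of short structural nuclear RNAs, 0 were lower and 0 higher on it, with a median of -1.465. Of 16 paraspeckle protein genes, partners of Neat1, 13 were lower over untagged cells and 3 higher, from Pspc1 at -1.09 to Cpsf7 at 1.07. Of 18 genes on the list for nuclear speckles, 15 were lower and 2 higher, from the splicing factor Srsf2 at -1.26 to Celf4 at 0.40. That list was set by name, and the place of each product in the cell was not measured. Srsf2 was itself 1.65 higher in untagged IPs than in inputs. Of the 10 genes of the imprinted domain of Kcnq1ot1, 2 were lower and 2 higher, from Phlda2 at -0.85 to Cd81 at 2.13. Of 9 Polycomb and H3K9 methyltransferase genes, reported partners of Kcnq1ot1 and Tug1, 4 were lower and 4 higher, from Eed at -0.53 to Suz12 at 1.69. Of 4 genomic neighbours 2 were higher and 1 lower, from Myc, next to Pvt1, at -0.83 to Frmd8, next to Neat1, at 1.34.

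Differences between the sets in recovery over untagged cells were tested for each genotype, and the comparisons share the untagged libraries. For HA-Tnrc6a cells 0 of 6 members passed, where 0.205% of genes were higher in the second set and 0.160% lower. Malat1 was nearest at -0.67 (SE 0.19, adjusted p = 0.0934), and passed with DESeq2 (0.0177), in 1 fit of all 48 libraries (0.0296) and with library totals (0.0162). In the Ago2 knockout Malat1 (-1.41, SE 0.20, adjusted p = 4.94e-05) and Neat1 (-1.18, SE 0.31, adjusted p = 0.0323) were lower in the second set, 2 of 6 where 3.20% of genes were lower and 2.94% higher. In cells labelled Upf1 knockout Malat1 was (-0.90, SE 0.19, adjusted p = 0.0085), 1 of 6 where 1.02% were lower and 0.658% higher. Neat1 also passed there with DESeq2 (-1.02, adjusted p = 0.00561) and with library totals (-1.19, adjusted p = 0.00811). The Neat1 call was lost without Ago2 knockout inputs 2 or 3, untagged input 1 or untagged IP 6 (adjusted p up to 0.0554).

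Recovery of Malat1 and Miat was also low in the knockouts. In Ago2 knockout cells Malat1 inputs held 137, 144 and 155 CPM, then 98.1, 107 and 91.8 CPM, and the IPs 94.2, 109 and 96.9 CPM, then 58.8, 62.9 and 53.5 CPM. IPs were below inputs in both sets, and the log2 IP over input was -0.68 (SE 0.070, adjusted p = 6.94e-10). Miat stood at -1.08 (SE 0.14, adjusted p = 1.6e-08) and Neat1 at -0.32 (SE 0.11, adjusted p = 0.0165), a call lost without Ago2 knockout IP 6 (adjusted p = 0.0645). Tug1 rose by 0.32 (SE 0.056, adjusted p = 3.02e-06), but by 0.04 (adjusted p = 0.565) with library totals. In all, 3 of 6 were lower (background 36.9%) and 1 higher (35.0%), against 4 and 0 with library totals, where Pvt1 passed as lower (-0.23, adjusted p = 0.0169). Among all genes 10178 were lower and 5262 higher with library totals, against 7368 and 6998 with TMM. Neat1 passed in neither set alone (adjusted p = 0.25 and 0.0609). Pvt1 passed as higher in the first set alone (0.35, adjusted p = 0.0389).

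Libraries labelled Upf1 knockout gave the same count, 3 lower (background 35.9%) and 1 higher (34.7%). Malat1 stood at -0.28 (SE 0.067, adjusted p = 0.000366), Miat at -0.70 (SE 0.15, adjusted p = 9.5e-05) and Tug1 at 0.35 (SE 0.048, adjusted p = 4.99e-08), the last turning to -0.05 with library totals. Malat1 did not pass in the second set alone (-0.16, adjusted p = 0.155), and with library totals Pvt1 passed as lower (-0.28, adjusted p = 0.000152), which makes 4 lower and 0 higher. Among all genes 10974 were lower and 4750 higher with library totals, against 7156 and 6912 with TMM. Neat1 was at -0.21 (SE 0.094, adjusted p = 0.0481), and lost its call in 17 of the 24 fits that left out 1 library (adjusted p up to 0.105). These were all 6 untagged inputs and untagged IP 6, which enter the estimate of spread, and all labelled Upf1 knockout libraries but input 3 and IP 6. For this RNA the IPs (150, 143 and 139 CPM, then 65.7, 58.6 and 67.4 CPM) lay just below the inputs (162, 179 and 156 CPM, then 78.5, 75.9 and 80.5 CPM) in each set.

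Against untagged cells, which are shared by these comparisons, the Ago2 knockout had 4 of 6 lower (background 33.2%) and 1 higher (31.5%). Malat1 was -1.71, Miat -1.18, Neat1 -0.93 and Tug1 0.27, the last not passing with library totals (0.12, adjusted p = 0.182) or within either set alone (adjusted p = 0.0676 and 0.0515). Kcnq1ot1 was -1.35 (SE 0.56, adjusted p = 0.0354) on IP counts of 6, 2 and 1, then 22, 28 and 18, and lost its call in 8 of 24 fits that left out 1 library (adjusted p up to 0.0959): Ago2 knockout inputs 1, 3 and 6, its IPs 2, 3 and 6, untagged input 4 and untagged IP 6. In cells labelled Upf1 knockout 3 were lower and 1 higher, where 31.8% of genes were lower and 31.8% higher. There Malat1 was -1.31, Neat1 -0.83, Miat -0.79 and Tug1 0.30, the last not passing with library totals (0.04, adjusted p = 0.624) or within either set alone (adjusted p = 0.105 and 0.0877). Pvt1 passed as lower with library totals (-0.28, adjusted p = 0.011).

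Whether the knockouts changed the recovery itself was tested as the IP over input of each knockout less that of HA-Tnrc6a cells, which both comparisons share. In the Ago2 knockout Malat1 was lower by a log2 of -0.37 (SE 0.077, adjusted p = 0.000421), 1 of 6 members where 12.3% of genes were lower and 9.09% higher. The first set gave -0.03 (adjusted p = 0.913) and the second -0.72 (adjusted p = 3.04e-05), a difference between sets of -0.72 (SE 0.15, adjusted p = 0.0286), where 0.0800% of genes were lower and 0.115% higher. That difference was lost in 11 of 24 fits that left out 1 library (adjusted p up to 0.0935): Ago2 knockout inputs 1, 2, 4 and 5 and IP 6, and HA-Tnrc6a inputs 3, 5 and 6 and IPs 1, 2 and 5. Of the others, Tug1 came nearest at -0.19 (SE 0.075, adjusted p = 0.0632; 0.0433 by DESeq2), and Miat was at -0.20, Neat1 at -0.20, Kcnq1ot1 at -0.71 and Pvt1 at 0.08. In cells labelled Upf1 knockout 0 of 6 passed by edgeR's test, where 2.92% of genes were higher and 1.57% lower, and 0 of the 5 with an adjusted p from DESeq2. Tug1, at -0.17 (SE 0.066, unadjusted p = 0.0155, adjusted p = 0.161), was the only member with an unadjusted p under 0.05. It passed with library totals (-0.26, adjusted p = 0.0153) and in 3 of 24 fits that left out 1 library (adjusted p down to 0.0235): HA-Tnrc6a IPs 3 and 4 and labelled Upf1 knockout IP 4. The difference between sets in that recovery passed for 0 of 6, where 0.110% of genes were higher and 0.00501% lower.

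Levels in the lysates also differed between genotypes. In bulk lysates, fewer cells of a kind and less RNA per cell cannot be told apart. HA-Tnrc6a inputs, given above, ran from 10.7 to 12.3 CPM of Pvt1, while inputs labelled Upf1 knockout held 33.4, 33.2 and 28.3 CPM, then 58.7, 52.0 and 50.1 CPM. Each of the latter lay far above the highest HA-Tnrc6a input. The log2 difference was 1.86 (SE 0.055, adjusted p = 2.74e-31), a 3.62-fold rise above 99.8% of genes, with 1.48 in the first set and 2.23 in the second. The IPs were high as well, at 41.1, 36.6 and 39.4 CPM, then 54.3, 48.6 and 44.0 CPM. The log2 IP over input of Pvt1 was 0.12 (SE 0.062, adjusted p = 0.0863) in these cells. It passed as higher in the first set alone (0.28, adjusted p = 0.0223) and was -0.15 (adjusted p = 0.0969) in the second.

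Neat1 was higher in the same lysates, by 0.78 (SE 0.032, adjusted p = 1.17e-25), and none of the 6 inputs overlapped those of HA-Tnrc6a cells within a set. Tug1 rose by 0.19 (SE 0.028, adjusted p = 9.85e-08), with inputs of 101, 97.5 and 99.8 CPM, then 112, 106 and 109 CPM, above every HA-Tnrc6a input of its set. Malat1 fell by 0.37 (SE 0.051, adjusted p = 4.03e-05), from the HA-Tnrc6a inputs given above to 119, 127 and 127 CPM, then 80.7, 77.9 and 95.3 CPM. Miat was at -0.35 (SE 0.12, adjusted p = 0.00808), with -0.06 in the first set and -0.65 in the second. In sum 3 of 6 were higher (background 29.5%) and 2 lower (29.0%). Among snoRNA host and exported noncoding RNAs 12 of 18 were higher and 3 lower, with a median of 0.66, while Myc was -0.48 and Cdkn1c, a growth inhibitor in the Kcnq1ot1 domain, -1.38.

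**Figure D4:**
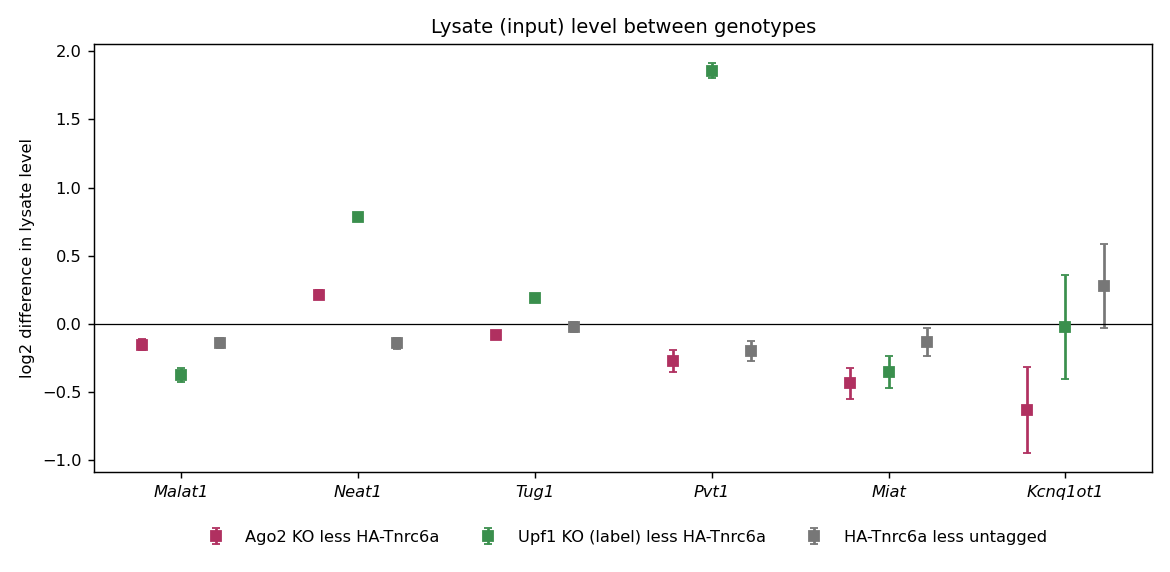
Log2 difference of lysate level between genotypes for each RNA, with standard errors. Pvt1 (1.86) and Neat1 (0.78) were higher in cells labelled Upf1 knockout, and differences between HA-Tnrc6a and untagged inputs lay within 0.28 of 0.

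Ago2 knockout lysates were compared with the same HA-Tnrc6a inputs. Primitive endoderm markers, 5 of 5 in the table, summed to 5.18 to 6.34 CPM in Ago2 knockout inputs, 16.5 to 24.3 in HA-Tnrc6a inputs and 8.57 to 48.6 in inputs labelled Upf1 knockout, and their part in the differences of the members was not tested. Neat1 inputs held 124, 115 and 109 CPM, then 49.9, 53.7 and 50.0 CPM, above the HA-Tnrc6a inputs of each set, and the log2 difference was 0.22 (SE 0.034, adjusted p = 1.64e-06). Miat fell by 0.43 (SE 0.11, adjusted p = 0.00236), Pvt1 by 0.27 (SE 0.079, adjusted p = 0.00694) and Malat1 by 0.15 (SE 0.040, adjusted p = 0.00562). In the first set alone Miat (-0.18, adjusted p = 0.501), Pvt1 (-0.23, adjusted p = 0.203) and Malat1 (-0.073, adjusted p = 0.362) did not pass. Tug1, at -0.08 (adjusted p = 0.0453), lost its call in 8 of 12 fits without 1 library (Ago2 knockout inputs 2, 3, 5 and 6, HA-Tnrc6a inputs 1, 2, 4 and 5; adjusted p up to 0.157). Thus 4 of 6 were lower (background 15.2%) and 1 higher (15.7%), with 2 lower and 0 higher when all 48 libraries shared 1 fit. In that fit 1904 of all genes were lower and 1998 higher, against 2983 and 3082 in the main test. Between HA-Tnrc6a and untagged inputs Malat1 and Neat1 were each at -0.14 (adjusted p = 0.00511 and 0.0122), 2 of 6 lower where 7.67% of genes were lower and 7.74% higher, and neither passed in the fit of all 48 libraries (adjusted p = 0.166 and 0.456).

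As a description, the genes whose log2 CPM ran most like each member over the 48 libraries were found by Pearson correlation. The libraries share genotype, fraction and set, so the coefficients carry no test. Malat1 ran with Gm37376 (r = 0.934) and Prpf4b (0.927), Neat1 with F730043M19Rik (0.918) and Sh3gl3 (0.877), and Pvt1 with Gm27286 (0.941) and Itfg2 (0.939). Tug1 ran with Dcp2 (0.915) and Slc37a3 (0.908), and Miat with Snhg4 (0.921) and Tomm20 (0.911). Kcnq1ot1 reached only 0.531, with AI480526, and 0.525 with Pced1a, on its few counts. Among the members themselves the highest coefficient was that of Malat1 with Miat (0.714) and the lowest that of Tug1 with Miat (-0.583).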

How the data were processed

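The authors deposited 1 table of raw read counts per gene and library, which is not normalized. It also has a gene length in bases (another unit than the counts, per the file headers, whose name for it points to QuasR) and 48 scaled columns, not used here. Per the submitters' processing notes, bcl2fastq 2.20 and STAR 2.7.3a were used and the builds were GRCm38 and mm10. Annotation, strand setting and filters are not given in the sources used here. Per the labels, a stranded total RNA kit was used. The table named 16427 genes, reference tables another 3725, and 19 stayed unnamed.

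Counts were tested with edgeR 4.0.16 (R 4.3.3) using TMM, filterByExpr with a minimum count of 10, the robust quasi-likelihood fit and two-sided tests. Each fit held only the groups compared, with 1 coefficient per genotype, fraction and set. Contrasts were averaged over the 2 sets, and genes passed at a Benjamini-Hochberg adjusted p under 0.05. CPM values use TMM over the 48 libraries, and correlations log2 CPM with a prior count of 2, over genes with a mean log2 CPM of at least 3. Standard errors (SE) were derived from the quasi-likelihood fit, and reads carry no molecular identifiers.

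Text names all 6 members, the 3 targeted genes, the 2 genes most correlated with each member, and in each list the genes with the largest positive and negative enrichment among those passing. Aldoa and Rmrp as double rows, and Cdkn1c and Myc in inputs were named outside this rule. The members and lists were chosen with earlier results of these data known. Scripts were tested on simulated data. Alternatives were DESeq2 1.42.0, RLE factors, library totals, no filter, 1 fit of all libraries, each set alone, IPs without inputs, a replicate block and leaving out each library.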

Additional observations from a re-analysis of the deposited data

Results flagged for a closer look

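Within the 6 libraries of a group, 2 values stood far from the other 5. They were the highest Tug1 value of the Ago2 knockout IPs, 130 CPM in library 5, and the highest Miat value of the untagged IPs, 9.25 CPM in library 3. Chance alone flags about 1 in 20 groups if the 6 values come from 1 normal distribution, and 48 groups were examined for the 6 RNAs. Each group joins both sets, which differed in level for some RNAs, so that rate need not hold here.

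Differences between the second and first set passed the test in 5 cases, of which 4 concern Malat1. Its log2 IP over input in untagged cells was higher by 1.26 in the second set. Its enrichment over untagged cells was lower there, by a log2 of -1.41 in the Ago2 knockout and -0.90 in cells labelled Upf1 knockout, and Neat1 in the Ago2 knockout was lower by -1.18. These comparisons share the untagged libraries. For HA-Tnrc6a cells the same difference passed for 0 of 6 by edgeR's test, with 2 (Malat1 and Neat1) at an unadjusted p under 0.05 and 1 (Malat1) by DESeq2. The recovery of Malat1 in the Ago2 knockout against HA-Tnrc6a cells was lower by -0.72 in the second set, which did not pass in 1 fit of all 48 libraries (adjusted p = 0.113) or with library totals (0.0916). Set, depth and column number go together here and cannot be told apart.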

How the results depend on the processing

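Enrichment is IP over input less that of untagged cells, and relative recovery is a knockout's IP over input less that of HA-Tnrc6a cells. In all 24 fits that left out 1 library, with RLE factors, DESeq2, no low-count filter, 1 fit of all 48 libraries, library totals and each set alone, Malat1 and Miat kept lower and Tug1 higher HA-Tnrc6a IP over input and enrichment, past the threshold. The exception among each set alone was Malat1 IP over input in the second set (-0.037, adjusted p = 0.722). Kcnq1ot1, with 1 to 57 counts per library, has few counts in all libraries. For each change below the cause was not tested.

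With library totals, the share of called genes that were higher moved from 50.1% to 21.3% in untagged IP over input, from 48.7% to 34.1% in the Ago2 knockout and from 49.1% to 30.2% in cells labelled Upf1 knockout. For relative recovery labelled Upf1 knockout it moved from 65.1% to 22.4%. For differences between sets it moved from 56.2% to 5.39% (HA-Tnrc6a enrichment), from 47.9% to 17.3% (Ago2 knockout enrichment), from 39.1% to 8.85% (labelled Upf1 knockout) and from 66.1% to 93.9% (untagged), and for 3 of these the count of genes moved: from 73 to 482, from 335 to 1039 and, untagged, from 890 to 2794. Enrichment itself moved from 48% to 39.1% higher, and from 50% to 36.4% labelled Upf1 knockout. Values that changed sign with library totals were Tug1 (-0.085), Miat (-0.040) and Pvt1 (-0.0004872) in untagged IP over input, and Pvt1 in HA-Tnrc6a (-0.31), Ago2 knockout (-0.23) and labelled Upf1 knockout (-0.28) IP over input. So did Kcnq1ot1 (-0.12) and Tug1 (-0.047) in labelled Upf1 knockout IP over input, Malat1 (-0.074) in its relative recovery, Kcnq1ot1 (0.021) in its input, and the set differences of Tug1 in Ago2 knockout enrichment (-0.064) and Pvt1 in untagged cells (0.19).

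In the first set alone Pvt1 enrichment changed sign (0.15, 0.20 and 0.082 in HA-Tnrc6a, Ago2 knockout and labelled Upf1 knockout cells), as did Kcnq1ot1 (0.060) and Miat (-0.060) in relative recovery and Kcnq1ot1 (0.032) in the input labelled Upf1 knockout. Genes called there were 3455 (untagged IP over input, 7453 over both sets), 1623 (Ago2 knockout relative recovery, 4267), 162 (labelled Upf1 knockout, 896), 3382 (Ago2 knockout input, 6065) and 652 (HA-Tnrc6a input, 2990). Kcnq1ot1 fell under the count filter in these last 2. In the second set alone Pvt1 IP over input was -0.25, -0.22 and -0.15 in the same 3 genotypes, Kcnq1ot1 0.12 (Ago2 knockout) and -0.10 (labelled Upf1 knockout), Malat1 relative recovery labelled Upf1 knockout -0.043 with 384 genes called, and HA-Tnrc6a against untagged input -0.038 for Kcnq1ot1 and 0.007441 for Tug1.

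IPs compared without inputs gave Pvt1 enrichment of 1.58 labelled Upf1 knockout. Relative recovery in the Ago2 knockout was then 0.053 for Neat1 and -0.16 for Pvt1. There Kcnq1ot1 (-1.31, adjusted p = 0.0132), Tug1 (-0.23, 0.00794) and Miat (-0.60, 0.00558) gained calls, which makes 4 of 6 lower. Of the 7482 genes called there, 3576 were lower and 3906 higher, against 2450 and 1817 in the main test. Relative recovery labelled Upf1 knockout, with 8805 genes called, was -0.39 for Malat1, 0.64 for Neat1 and -0.22 for Miat. Malat1, Neat1 and Pvt1, at 1.94, were called. Without the filter Malat1 relative recovery labelled Upf1 knockout was -0.012. In 1 fit of all 48 libraries it was -0.035, and 3902 (Ago2 knockout) and 1937 (HA-Tnrc6a) genes were called in inputs. Chosen after seeing the data, the same fit gave 226 genes for the HA-Tnrc6a set difference and -0.0395 (untagged) and 0.047 (relative recovery labelled Upf1 knockout) for set differences of Tug1, and no filter gave 9.955e-06 for Pvt1 (untagged) and 0.0103 for Tug1 (that relative recovery). DESeq2 called 399, 601, 104 and 40 genes for set differences in HA-Tnrc6a enrichment, enrichment labelled Upf1 knockout, and relative recovery of the Ago2 knockout and of cells labelled Upf1 knockout, against 73, 335, 39 and 23.

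Whether the replicate numbers pair the samples is not known, and the main tests took the libraries as unpaired. Same-numbered libraries of a set, over all genotypes and fractions, had a mean correlation of deviations of 0.068 (lowest -0.293, highest 0.674). Pairing of input with IP within a genotype was not tested apart. With a replicate block, genes called for the HA-Tnrc6a set difference were 160. Kcnq1ot1 Ago2 knockout enrichment (adjusted p = 0.0518) and the Neat1 set difference in it (0.0535) lost their calls, and Tug1 Ago2 knockout relative recovery (0.034) and the Neat1 set differences labelled Upf1 knockout (0.0404) and in untagged cells (0.0475) gained one, while no other member's call changed.

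Leaving out 1 library gave 20 to 337 genes for the HA-Tnrc6a set difference, 207 to 507 labelled Upf1 knockout, 574 to 1276 untagged, 24 to 71 and 19 to 37 for those in relative recovery (Ago2, labelled Upf1), and 591 to 957 for relative recovery labelled Upf1 knockout. Ranges that crossed 0, none of them a call, were for Kcnq1ot1 -0.071 to 0.66 (IP over input), -0.41 to 0.25 (input), -0.49 to 0.24 (relative recovery), -0.96 to 0.55 (set difference in enrichment) and -1.33 to 0.19 (in relative recovery), all labelled Upf1 knockout, and -0.15 to 0.86 (HA-Tnrc6a set difference). Malat1 relative recovery labelled Upf1 knockout ran from -0.070 to 0.063, and that set difference of Neat1 from -0.35 to 0.061. Set differences of Miat ran from -0.37 to 0.079 (labelled Upf1 knockout enrichment) and -0.38 to 0.066 (untagged). Pvt1 ran from -0.0009011 to 0.046 (HA-Tnrc6a IP over input) and -0.14 to 0.032 (labelled Upf1 knockout enrichment), and in set differences from -0.18 to 0.067 (Ago2 knockout relative recovery), -0.046 to 0.097 (labelled Upf1 knockout) and -0.080 to 0.098 (untagged). Tug1 ran from -0.047 to 0.000174 (HA-Tnrc6a input), and in set differences from -0.045 to 0.15, -0.087 to 0.062 and -0.11 to 0.064 (Ago2 knockout, HA-Tnrc6a and labelled Upf1 knockout enrichment), -0.021 to 0.18 and -0.084 to 0.074 (relative recovery, Ago2 and labelled Upf1) and -0.041 to 0.058 (untagged).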
